A study of Mus musculus with 7 samples.

Results

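The genes examined here are 10 genes that move cholesterol out of cells, store it as ester or turn it into oxysterols: *Abca1*, *Abcg1*, *Scarb1*, *Apoe*, *Lcat*, *Soat1*, *Nr1h2*, *Nr1h3*, *Cyp27a1* and *Cyp46a1*. They were chosen by name for their role, with earlier results of these data known. They are 10 of 52740 gene identifiers counted in RNA from mouse retinal pigment epithelium (RPE), the pigmented cell layer behind the photoreceptors. WT stands for 4 C57BL6/J mice (F1, F2 and F3, females, and M1, a male) and LC3b-/- for 3 mice (F1 and F3, females, and M, a male) of strain B6;129P2-Map1Lc3btm1Mrab/J, whose genotype the labels spell LCb-/-. All 7 mice were 24 months old, no treatment is named for any, each gave 1 library, and none were pooled. LC3b-/- mice lack *Map1lc3b* in every tissue, so a level measured in their RPE need not follow from the loss in RPE itself, and the strains may also differ in background. The RPE was released with hyaluronidase and trypsin after cornea, lens and ciliary body had been taken away.

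RPE receives cholesterol from the blood and from the photoreceptor outer segments that it engulfs daily, and returns part of it to lipoprotein particles. The transporters ABCA1 and ABCG1 hand cholesterol to lipid-poor apolipoproteins and to high-density lipoprotein (HDL), apolipoprotein E carries it between cells, and SOAT1 stores what remains as cholesteryl ester. Oxysterols, made by CYP27A1 and CYP46A1 among others, are export forms of cholesterol and ligands of the liver X receptors (LXRs), which switch on *Abca1*, *Abcg1* and *Apoe*. LC3B, the product of *Map1lc3b*, is the ubiquitin-like protein that is attached to autophagosomes and to phagosomes that hold engulfed outer segments.

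All 10 genes were detected in every library and passed the filter on low counts, with 16990 genes tested in all. None was called differentially expressed between LC3b-/- and WT, where a call needs an adjusted p under 0.05 (edgeR quasi-likelihood test, Benjamini-Hochberg) and a fold change of at least 1.5. Over all genes tested 40 were called, 0.235%, so a count of 0 among 10 genes is near that background. By edgeR 2 of the 10 had an unadjusted p under 0.05, *Scarb1* and *Cyp27a1*, both with lower values in LC3b-/- (24.1% of all genes had such a p, and 10.6% had one with lower values). DESeq2 called 0 of the 10, with 3 at an unadjusted p under 0.05, where it called 9.48% of all genes and gave 24.9% such a p. Limma's voom also called 0, with 3 at an unadjusted p under 0.05 (0.730% and 30.7% of all genes). Of all genes tested 0.112% were called as lower in LC3b-/-. The log2 fold change was below 0 for 6 of the 10 genes and above 0 for 4 (48.8% and 51.2% of all genes), from -0.58 to 0.24, with a median of -0.24 beside 0.01 over all genes tested. *Cyp27a1* was the 1 gene of the 10 whose groups did not overlap, beside 22.3% of all genes, or 10.3% counting those lower in LC3b-/-.

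The libraries held 24495952 to 35616134 counts. *Map1lc3b* had 2778 to 4444 counts in WT and 168 to 332 in LC3b-/- (log2 fold change -3.98), as the labels state the genotypes. The tissue was checked by 8 RPE genes, all counted in every library, whose summed level was 30775 to 48571 CPM (counts scaled to a common library size) in WT and 13286 to 28795 in LC3b-/-. Of those 8 genes 7 had lower values in LC3b-/- (48.8% of all genes), 6 of them with an unadjusted p under 0.05 (10.6%). By edgeR 0 of the 8 were called, a count near the background (0.235% of all genes). In bulk RNA fewer cells of a type and less RNA per cell cannot be told apart. Libraries were also unlike in other tissue: the sum of 8 photoreceptor genes ran from 95.3 CPM in LC3b-/- F1 to 20608 in WT F2, and the genotypes overlapped. The sum of 7 ocular surface genes (6 keratins and *Muc4*) was higher in each LC3b-/- library than in any WT library, at 5.13 (F3), 385 (F2), 505 (F1) and 2052 CPM (M1) in WT and at 16366 (F1), 3985 (F3) and 2104 CPM (M) in LC3b-/-. All 7 of these genes had higher values in LC3b-/- (51.2% of all genes), 5 with an unadjusted p under 0.05 (13.5%). Here too 0 were called by edgeR, a count near the background (0.235% of all genes).

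**Figure D1:**
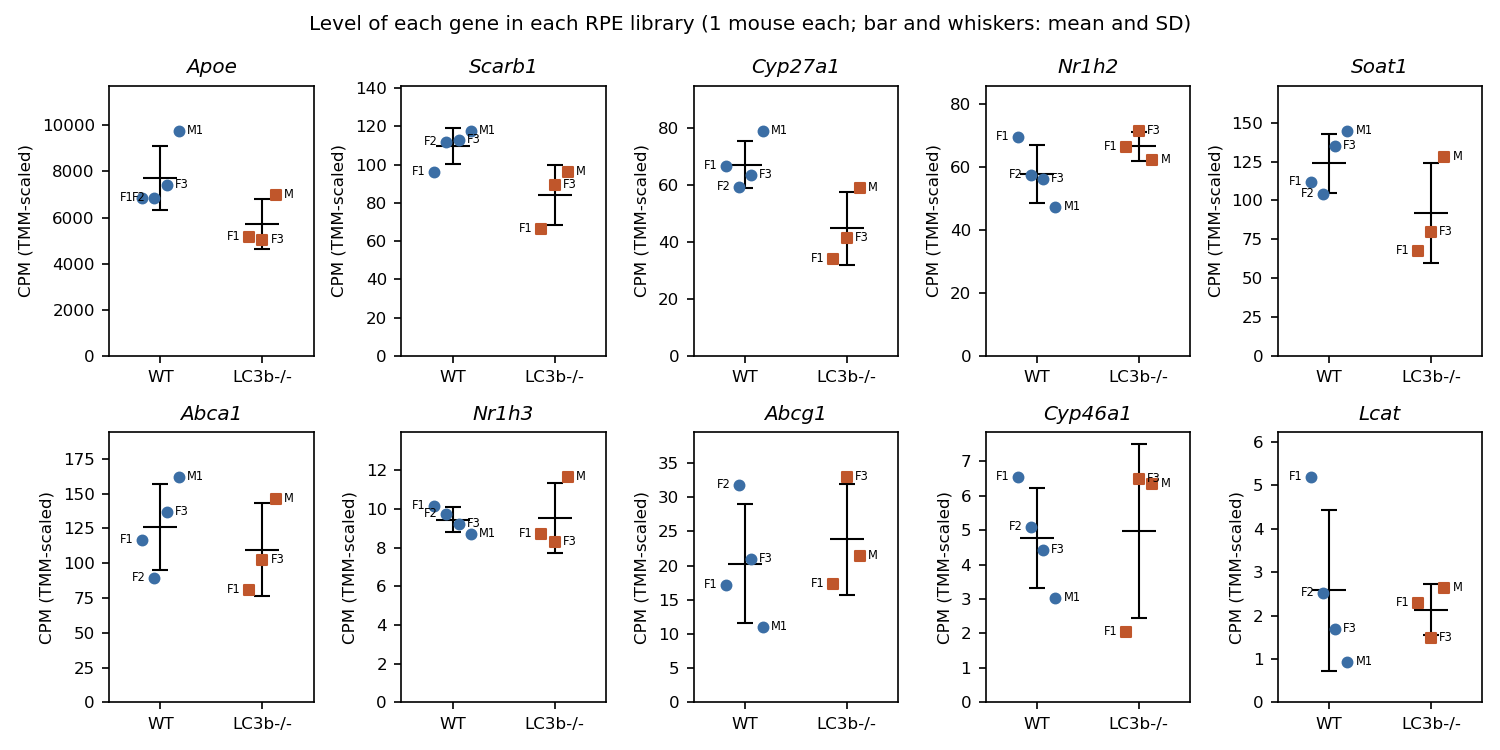
Level of the 10 genes in each library, in CPM scaled by TMM from 0 on each vertical axis, with WT as circles and LC3b-/- as squares, the mouse name beside each point, and the mean and SD in black. The groups share part of their range for 9 genes, and for *Cyp27a1* all LC3b-/- points lie under the WT points.

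ABCA1 loads cholesterol and phospholipid onto lipid-poor apolipoproteins. The gene lies on the minus strand at chr4:53030787-53159900 (GRCm39) with 50 exons in its canonical transcript. Its promoter and that of *Cyp27a1* are shown because they were the only ones of the 10 that held a searched motif. The bases from 150 before the start of the canonical transcript to the edge of the annotated gene are given 5′ to 3′ on the gene's strand, from GRCm39. They are 150 bases for *Abca1* at chr4:53159901-53160050 (minus strand) and 119 for *Cyp27a1* at chr1:74752195-74752313 (plus strand), where another transcript starts further upstream. Capitals mark matches to the E-box CACGTG and, in *Abca1*, to an LXR-type direct repeat, searched as 2 copies of GGTNA with 5 bases of any kind between them, which sits on the opposite strand and so reads as its reverse complement.
Abca1: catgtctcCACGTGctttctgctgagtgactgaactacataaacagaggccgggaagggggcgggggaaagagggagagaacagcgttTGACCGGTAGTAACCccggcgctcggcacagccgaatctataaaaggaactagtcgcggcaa
Cyp27a1: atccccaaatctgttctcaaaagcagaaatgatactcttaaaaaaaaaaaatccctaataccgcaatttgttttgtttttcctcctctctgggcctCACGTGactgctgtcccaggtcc

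Both motifs were searched on both strands in the 250 bases before the canonical start of 21770 protein-coding genes. The repeat was found in 119 of them (0.547%) and, among the 10, in *Abca1* at -62 to -48 from the start. The E-box was found in 1363 (6.26%) and, among the 10, in *Abca1* at -142 to -137 and in *Cyp27a1* at -54 to -49. Neither motif was in the same window of any of 48 other genes of cholesterol handling. A match of letters is a description of the sequence and not a measured binding site.

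The level of *Abca1* in the WT mice F1, F2, F3 and M1, in that order, was 117, 89.2, 137 and 162 CPM, and in the LC3b-/- mice F1, F3 and M it was 80.5, 102 and 146 CPM. The same orders hold for the values below. The groups overlapped over most of their range, with the male highest in each genotype. The log2 fold change was -0.20 (SE 0.26, 95% interval -0.81 to 0.41, edgeR adjusted p = 0.670), and the exact two-sided permutation test gave p = 0.486. *Abcg1*, whose product passes cholesterol to mature HDL, was at 17.2, 31.8, 21.0 and 11.1 CPM in the 4 WT libraries and at 17.2, 32.9 and 21.4 CPM in the 3 LC3b-/- libraries. Its log2 fold change was 0.24 (SE 0.37, 95% interval -0.62 to 1.10, edgeR adjusted p = 0.723). The spread within a genotype was larger than the difference between them, and without LC3b-/- F3 the log2 fold change was -0.10. WT F2 and LC3b-/- F3, the highest WT and the highest LC3b-/- library for *Abcg1*, were also the highest of their genotypes for the summed photoreceptor genes (20608 and 7029 CPM) and for 6 genes of retinal neurons (325 and 268 CPM), whose part in the level was not tested.

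Within a library, the log2 ratio of *Abca1* to *Abcg1* counts was 2.70 ± 0.97 (SD, n = 4) in WT and 2.21 ± 0.57 (SD, n = 3) in LC3b-/-. The difference of -0.49 was smaller than the WT spread, and the exact two-sided permutation test gave p = 0.457. WT values alone ran from 1.49 in F2 to 3.86 in M1.

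*Scarb1* encodes the receptor SR-BI, which exchanges cholesterol with HDL in both directions, and lies on the minus strand at chr5:125353547-125418176. Its level was 96.0, 112, 113 and 118 CPM in WT and 66.4, 89.5 and 96.3 CPM in LC3b-/-. The groups met only at their edge, where LC3b-/- M stood at about the level of WT F1. The log2 fold change was -0.38 (SE 0.15, 95% interval -0.74 to -0.02, unadjusted p = 0.0400, edgeR adjusted p = 0.189), and the exact two-sided permutation test gave p = 0.0857. Several annotated non-coding genes share parts of its locus on either strand, and since the strand option of the counting is not stated, their share in its count was not tested.

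*Apoe*, the main apolipoprotein made by RPE and a target of LXR, was the most abundant of the 10 by far. It stood at 6833, 6861, 7393 and 9753 CPM in WT and at 5172, 5030 and 6959 CPM in LC3b-/-. LC3b-/- F1 and F3 lay below every WT library, while LC3b-/- M lay inside the WT range. The log2 fold change was -0.43 (SE 0.26, 95% interval -1.05 to 0.19, edgeR adjusted p = 0.352; exact two-sided permutation p = 0.0857).

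Esterification is carried by *Soat1* inside the cell and by *Lcat* on HDL. *Soat1*, at chr1:156252095-156303864 on the minus strand, was at 112, 104, 135 and 145 CPM in WT and at 67.4, 79.7 and 128 CPM in LC3b-/-. Here too LC3b-/- F1 and F3 lay below every WT library and LC3b-/- M lay inside the WT range. The log2 fold change was -0.43 (SE 0.24, 95% interval -0.99 to 0.13, edgeR adjusted p = 0.310; exact two-sided permutation p = 0.143), and -0.75 without LC3b-/- M (adjusted p = 0.0711). Stretches of 129 to 142 bases of its transcript were near-identical to parts of other genes, whose share in its count was not tested. *Lcat*, which is made mainly in liver and, in the nervous system, by glia, was the least abundant of the 10 per transcript length. Its level was 5.18, 2.53, 1.68 and 0.92 CPM in WT and 2.30, 1.48 and 2.63 CPM in LC3b-/-, so that all 3 LC3b-/- libraries lay within the WT range. WT F1 decided the sign of its log2 fold change, which was -0.28 with that library (SE 0.57, edgeR adjusted p = 0.797) and 0.32 without it.

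Neither LXR gene had a difference that passed the test. *Nr1h2*, which encodes LXRβ, the form present in most tissues, was at 69.6, 57.6, 56.0 and 47.3 CPM in WT and at 66.2, 71.4 and 62.1 CPM in LC3b-/-. Its log2 fold change was 0.21 (SE 0.14, 95% interval -0.13 to 0.54, edgeR adjusted p = 0.402). *Nr1h3*, which encodes LXRα, the form of liver, fat and macrophages, was at 10.2, 9.74, 9.21 and 8.69 CPM in WT and at 8.70, 8.28 and 11.6 CPM in LC3b-/-. Its log2 fold change was 0.01 (SE 0.18, 95% interval -0.40 to 0.42, edgeR adjusted p = 0.972), and under 10 of 16 other settings it took the opposite sign. That interval leaves out a change of 1.5-fold (0.585 on the log2 scale) in either direction, as does that of *Nr1h2*, whereas those of *Abcg1*, *Cyp46a1* and *Lcat* span 1.5-fold both ways. The log2 ratio of *Nr1h3* to *Nr1h2* counts was -2.59 ± 0.14 (SD, n = 4) in WT and -2.81 ± 0.36 (SD, n = 3) in LC3b-/-, a difference of -0.22 (exact two-sided permutation p = 0.314). *Nr1h2* was the higher of the pair in every library.

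*Cyp27a1* encodes the mitochondrial sterol hydroxylase that makes 27-hydroxycholesterol and lies on the plus strand at chr1:74752314-74777056. Its level was 66.8, 59.5, 63.6 and 79.0 CPM in WT and 34.1, 41.6 and 59.1 CPM in LC3b-/-. All 3 LC3b-/- values were under the lowest WT value, although LC3b-/- M came within 1 CPM of WT F2. The log2 fold change was -0.58 (SE 0.20, 95% interval -1.05 to -0.11), which is 1.497-fold lower in LC3b-/- and the furthest from 0 among the 10. The unadjusted p was 0.0219 and the edgeR adjusted p = 0.151, so the gene missed both the threshold on p and, narrowly, that on the fold change, and the exact two-sided permutation test gave p = 0.0286, the smallest that 35 splits allow. Leaving out LC3b-/- M moved the log2 fold change to -0.83 (adjusted p = 0.0532) and leaving out LC3b-/- F1 moved it to -0.42. The gene overlaps *Prkag3* on the opposite strand over 1239 bases. The longest stretch that their transcripts share is 351 bases, and *Prkag3* had 21 to 93 counts per library.

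*Cyp46a1* encodes the sterol hydroxylase of neurons, which makes 24-hydroxycholesterol for export from brain and retina. Its level was 6.53, 5.10, 4.42 and 3.04 CPM in WT and 2.05, 6.49 and 6.35 CPM in LC3b-/-. LC3b-/- F1 was the lowest library and LC3b-/- F3 and M lay near the highest WT library, and the log2 fold change was 0.06 (SE 0.44, 95% interval -0.97 to 1.09, edgeR adjusted p = 0.948). LC3b-/- F1 also had the lowest summed photoreceptor level (95.3 CPM) and the lowest sum of the retinal neuron genes (27.4 CPM), whose part in the value was not tested. The log2 ratio of *Cyp46a1* to *Cyp27a1* counts was -3.84 ± 0.59 (SD, n = 4) in WT and -3.29 ± 0.67 (SD, n = 3) in LC3b-/-, a difference of 0.55 that was smaller than the spread within either group (exact two-sided permutation p = 0.343).

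**Figure D2:**
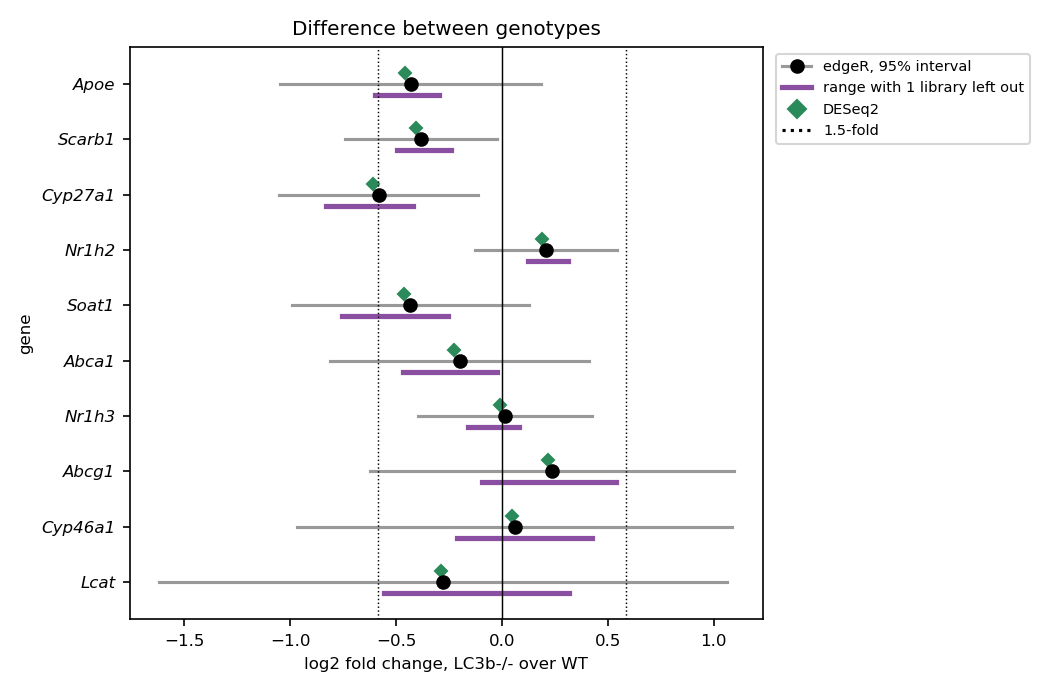
Log2 fold change of LC3b-/- over WT for the 10 genes (horizontal axis), by edgeR with its 95% interval, beside the range obtained when 1 library is left out, the DESeq2 estimate and the 1.5-fold limits. The intervals of *Scarb1* and *Cyp27a1* stay below 0, those of the other 8 genes include 0, and the range with 1 library left out crosses 0 for *Nr1h3*, *Abcg1*, *Cyp46a1* and *Lcat*.

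The order of the 10 genes was read from their level per transcript length, in CPM per kilobase of the canonical transcript. *Apoe* led in WT with 3535 ± 636 (SD, n = 4), which placed it at rank 20 of 16922 genes. It was followed by *Scarb1* with 43.1 ± 3.68, *Cyp27a1* with 29.5 ± 3.69 and *Nr1h2* with 27.4 ± 4.37. *Soat1* with 14.8 ± 2.29 and *Abca1* with 12.3 ± 2.99 came next. The lowest 4 were *Nr1h3* with 4.45 ± 0.30, *Abcg1* with 3.47 ± 1.49, *Cyp46a1* with 2.11 ± 0.64 and *Lcat* with 1.5 ± 1.08. The WT ranges of neighbours overlapped between *Cyp27a1* and *Nr1h2*, between *Soat1* and *Abca1*, and along the chain from *Nr1h3* to *Lcat*, so the order within those groups is not resolved by the spread between mice. In LC3b-/- the order was the same except that *Nr1h2* (31.7 ± 2.21, SD, n = 3) stood above *Cyp27a1* (19.7 ± 5.63). The longest annotated transcript in place of the canonical one exchanged *Cyp27a1* with *Nr1h2* and *Nr1h3* with *Abcg1*.

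**Figure D3:**
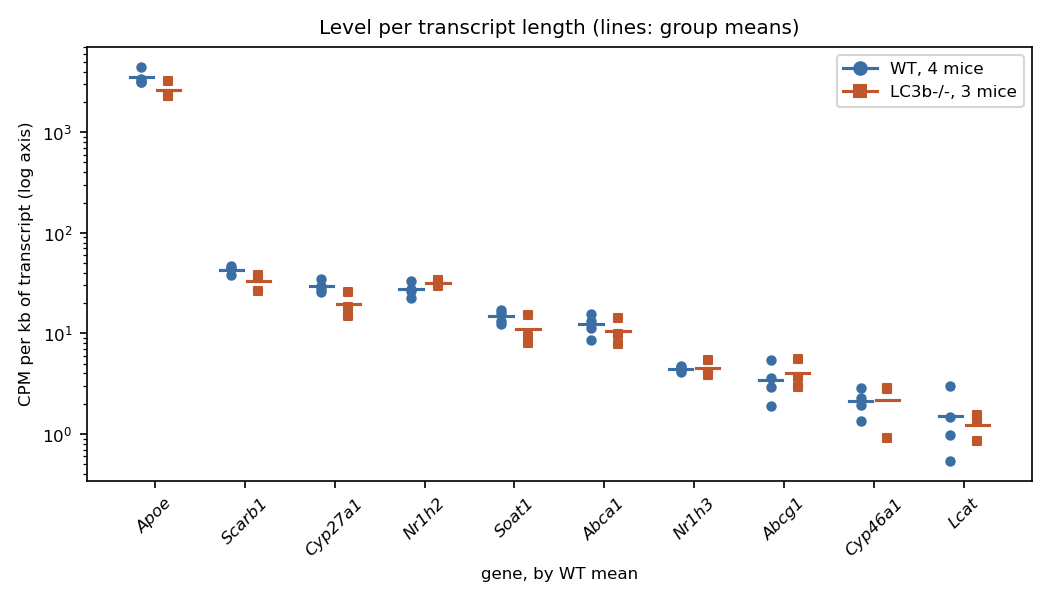
Level of each gene per kilobase of canonical transcript on a log axis, for 4 WT libraries (circles) and 3 LC3b-/- libraries (squares), with lines at the group means and genes ordered by the WT mean. *Apoe* stands apart from the other 9 genes, from 3133 to 4472 CPM per kilobase in WT, and the next, *Scarb1*, reaches 46.3.

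The genes also differed in how they varied from mouse to mouse. *Apoe*, *Scarb1*, *Cyp27a1*, *Soat1* and *Abca1* had their highest level in WT M1, and all 5 had their highest LC3b-/- level in M. The summed RPE genes had the same 2 libraries on top of their genotypes, at 48571 CPM in WT M1 and 28795 in LC3b-/- M, and they were lowest in LC3b-/- F1 (13286 CPM), as were *Scarb1*, *Cyp27a1*, *Soat1* and *Abca1*. The part of the RPE content in these levels was not tested. *Nr1h2* had its lowest level in WT M1. The sum of 6 endothelial genes was 308 to 959 CPM in WT, lowest in M1, and 1019 to 1331 CPM in LC3b-/-. The highest library exceeded the lowest by 1.41-fold for *Nr1h3* and 1.51-fold for *Nr1h2*, by 1.77- to 2.32-fold for *Scarb1*, *Apoe*, *Abca1*, *Soat1* and *Cyp27a1*, and by 2.97-fold for *Abcg1*, 3.18-fold for *Cyp46a1* and 5.61-fold for *Lcat*.

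**Figure D4:**
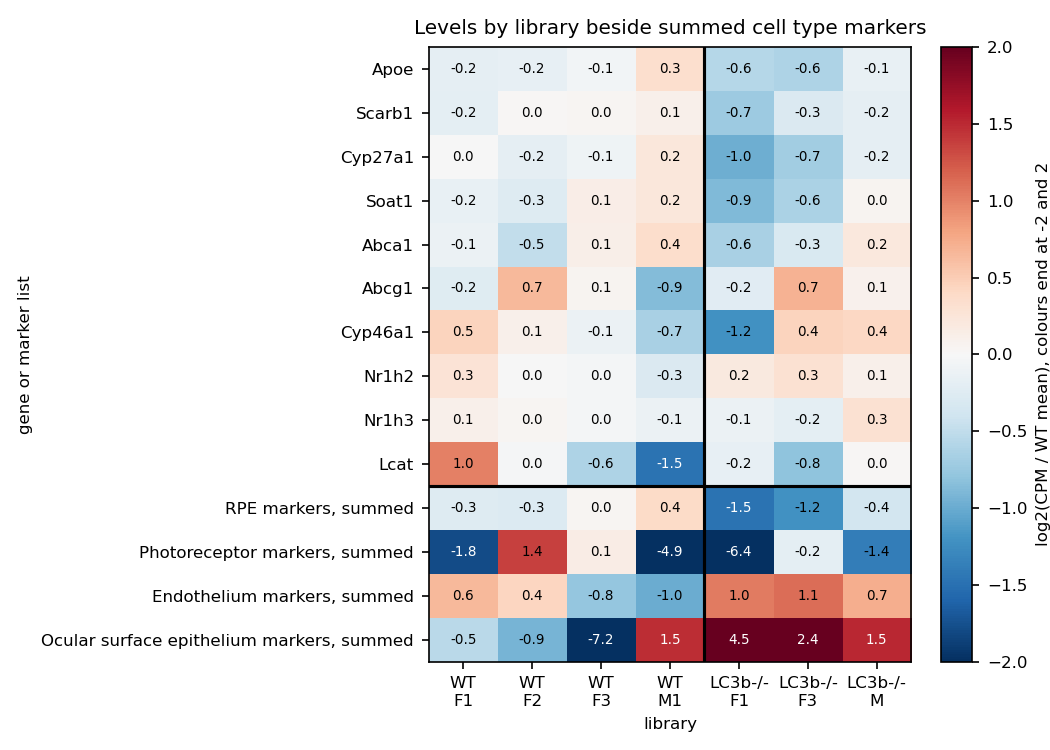
Level of the 10 genes and of 4 summed marker lists in each library, as log2 of the CPM over the WT mean (numbers in the cells, with the colours ending at -2 and 2). *Apoe*, *Scarb1*, *Cyp27a1*, *Soat1* and *Abca1* share the high WT M1 and the low LC3b-/- F1 with the RPE markers, apart from *Apoe*, which is lowest in LC3b-/- F3.

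The gene whose log2 CPM followed each of the 10 most closely over the 7 libraries was named by Pearson's r, as a description. The values were 0.999 for *Apoe* with *Nt5dc2*, 0.998 for *Scarb1* with *Ahi1*, 0.997 for *Cyp27a1* with *Rhbdl1*, 0.997 for *Soat1* with *Enpp5* and 0.992 for *Abca1* with *Ubxn2a*. They were 0.994 for *Abcg1* with *Nbea*, 0.993 for *Cyp46a1* with *Pcdha12*, 0.990 for *Nr1h2* with *Sema6a*, 0.983 for *Nr1h3* with *Surf2* and 0.968 for *Lcat* with *Ddr2*. The points are the same 7 libraries for every pair. Each partner is the highest of all genes tested on only 7 points, so a high r is due in part to that choice. Of the 16990 genes tested, 1126 had an r above 0.9 with *Apoe*, 1084 with *Soat1* and 1045 with *Cyp27a1*, against 29 with *Lcat* and 16 with *Nr1h3*.

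Around the 10 genes, 48 further genes of cholesterol handling were examined in 5 lists, of which 44 passed the filter. The others, *Abcg5*, *Abcg8*, *Cel* and *Cyp7a1*, were at or near 0, and *Cyp7a1*, the hydroxylase of bile acid synthesis in liver, had no count in any library. By edgeR 0 of the 44 were called, beside 0.235% of all genes, and 14 had an unadjusted p under 0.05, 9 with higher and 5 with lower values in LC3b-/- (13.5% and 10.6% of all genes). The groups did not overlap for 12, of which 8 were higher and 4 lower (12.0% and 10.3% of all genes). The median log2 fold change of the 44 was 0.06, beside 0.01 over all genes. DESeq2 called 7 of the wider genes, *Apoa2*, *Apoc1*, *Npc1*, *Pltp*, *Scp2*, *Stard4* and *Sult2b1*, where it called 9.48% of all genes. Voom called *Stard4* alone (0.730% of all genes). By DESeq2 and by voom 12 and 17 of the wider genes had an unadjusted p under 0.05 (24.9% and 30.7% of all genes). The lists were chosen with earlier results of these data known, and the paper names *Apoa2*, *Apoc1*, *Pltp* and *Stard4* as changed. These counts are therefore not independent of the data. *Apoa2*, counted among the lower genes and the DESeq2 calls, passed the filter through its WT counts alone. *Soat2*, counted among the higher genes without overlap, passed mainly through its LC3b-/- counts. Their direction was tied to the filter and is no support.

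Among transporters and acceptors 4 of 9 tested genes had an unadjusted p under 0.05, 3 with lower and 1 with higher values (24.1% of all genes had such a p). *Pltp*, the phospholipid transfer protein of HDL, was at 1045, 962, 1325 and 1568 CPM in WT and at 447, 466 and 824 CPM in LC3b-/- (log2 fold change -1.08, SE 0.29, edgeR adjusted p = 0.107). The highest LC3b-/- value was under the lowest WT value. The summed RPE genes were likewise lower in all LC3b-/- libraries (13286, 15959 and 28795 CPM, beside 30775 to 48571 in WT), and so they stand beside *Abca5*, *Npc2* and *Scp2* too, in a part that was not tested. *Abca5*, a lysosomal ABC transporter, was at 46.3 to 64.0 CPM in WT and at 25.2, 37.8 and 47.5 CPM in LC3b-/- (-0.60, adjusted p = 0.171). *Apoc1*, a small apolipoprotein of HDL whose gene neighbours *Apoe*, was at 0.56 to 3.15 CPM in WT and at 20.5, 7.47 and 4.02 CPM in LC3b-/- (2.70, SE 0.73, adjusted p = 0.105). LC3b-/- F1, the library with the most ocular surface transcripts (16366 CPM, beside 3985 in F3 and 2104 in M), was the highest. The part of that content in the *Apoc1* level was not tested. *Apoa2* had 26, 10, 7 and 12 counts in WT and 2, 0 and 0 in LC3b-/-. Pooled over mice it had 55 counts in WT and 2 in LC3b-/-, a ratio of 24.4 between WT and LC3b-/-. The 95% Poisson interval of that ratio, 6.45 to 207, holds counting error only and leaves out the spread between mice. By edgeR its log2 fold change was -4.21 (95% interval -6.84 to -1.58, adjusted p = 0.0982), and it was not called. *Apoa2* passed the filter through its WT counts alone, so its direction, counted among the 3 lower genes above, is no support. *Apod*, the most abundant after *Pltp*, was at 58.7 to 275 CPM in WT and 123 to 247 in LC3b-/- (0.43, adjusted p = 0.636).

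Of 8 LXR partners and known LXR targets 1 had an unadjusted p under 0.05, beside 24.1% of all genes. *Rxra*, the partner of both LXRs, was at 48.3 to 62.2 CPM in WT and at 92.7, 65.5 and 67.1 CPM in LC3b-/- (0.41, SE 0.16, edgeR adjusted p = 0.178), with no overlap between groups. *Srebf1*, the regulator of fatty acid synthesis that LXR induces, was at 202 to 389 CPM in WT and 188 to 301 in LC3b-/- (-0.21, adjusted p = 0.688). *Smpdl3a*, a phosphodiesterase that LXR induces in macrophages, was at 92.0 to 137 CPM and 68.2 to 118 CPM (-0.43, adjusted p = 0.296). Among the listed targets *Abca1*, *Apoe*, *Srebf1* and *Smpdl3a* lay below 0. *Mylip* (0.06), *Lpcat3* (0.04), *Arl4c* (0.53) and *Abcg1*, whose sign turned without LC3b-/- F3, lay above it. None was called by edgeR, beside 0.235% of all genes, so that count is near the background.

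Of 5 tested genes of ester formation and hydrolysis none had an unadjusted p under 0.05 by edgeR, beside 24.1% of all genes. The lysosomal lipase gene *Lipa* was at 90.2 to 129 CPM in WT and 91.5 to 100 CPM in LC3b-/- (-0.19, adjusted p = 0.437). *Nceh1*, a hydrolase of cytosolic ester, was at 33.5 to 37.9 CPM and 34.3 to 40.8 CPM (0.12, adjusted p = 0.520). Both intervals leave out a 1.5-fold change, from -0.51 to 0.14 for *Lipa* and from -0.13 to 0.38 for *Nceh1*.

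Among 8 tested genes of oxysterol formation and clearance 3 had an unadjusted p under 0.05, all with higher values in LC3b-/-. Of all genes 24.1% had such a p, and 13.5% had one with higher values. *Ch25h*, an oxysterol-forming hydroxylase that is induced in inflamed tissue, was at 48.3, 25.9, 18.3 and 12.1 CPM in WT and at 67.5, 41.4 and 72.3 CPM in LC3b-/- (1.21, SE 0.45, edgeR adjusted p = 0.168). WT F1 lay above LC3b-/- F3. *Cyp39a1*, an oxysterol hydroxylase, was at 11.4 to 14.4 CPM in WT and at 17.3, 14.7 and 17.8 CPM in LC3b-/- (0.36, adjusted p = 0.179). *Sult2b1*, a cholesterol and oxysterol sulfotransferase that is abundant in skin, was at 0.34 to 1.00 CPM in WT and at 5.52, 1.23 and 1.92 CPM in LC3b-/- (2.04, SE 0.60, adjusted p = 0.118), highest in LC3b-/- F1. The part of the ocular surface content in its level was not tested. *Hsd3b7*, a steroid dehydrogenase acting on hydroxylated sterols, was at 19.9 to 31.5 CPM and 27.2 to 29.9 CPM (0.23, adjusted p = 0.460).

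Of 14 genes of intracellular sterol transport 6 had an unadjusted p under 0.05, beside 24.1% of all genes, 4 with higher and 2 with lower values in LC3b-/-. *Stard4*, a cytosolic sterol carrier that is a known target of SREBP2, was at 8.25, 6.09, 5.35 and 4.5 CPM in WT and at 49.7, 29.9 and 18.3 CPM in LC3b-/- (2.43, SE 0.36, edgeR adjusted p = 0.0563). It was 5.38-fold higher with no overlap, and it was called under 10 of 16 other settings. Among the LC3b-/- mice its level was ordered F1, F3 and M, as was the sum of the ocular surface genes given above. In WT the 2 orders differed, since M1 had the highest sum (2052 CPM) and the lowest *Stard4* level (4.5 CPM). The part of the ocular surface content in the level was not tested. *Npc1*, which moves cholesterol out of lysosomes, was at 46.2, 46.2, 40.9 and 31.5 CPM in WT and at 67.0, 76.4 and 66.0 CPM in LC3b-/- (0.76, SE 0.15, adjusted p = 0.0906). Its soluble partner *Npc2* had the opposite sign, at 437, 408, 432 and 515 CPM in WT and at 263, 279 and 391 CPM in LC3b-/- (-0.53, SE 0.18, adjusted p = 0.153). The groups did not overlap for either gene.

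*Scp2*, a peroxisomal sterol carrier and thiolase, was at 284 to 372 CPM in WT and at 202, 188 and 238 CPM in LC3b-/- (-0.61, SE 0.15, edgeR adjusted p = 0.0983). *Gramd1a*, which brings plasma membrane cholesterol to the endoplasmic reticulum, was at 24.7 to 47.3 CPM in WT and at 45.1, 55.2 and 50.9 CPM in LC3b-/- (0.67, adjusted p = 0.161). *Cav1*, the scaffold of caveolae, was at 16.9 to 38.6 CPM and at 49.2, 53.1 and 37.1 CPM (0.70, adjusted p = 0.200). *Cav1* is abundant in endothelium, and the endothelial sum given above moved the same way, in a part that was not tested.

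**Figure D5:**
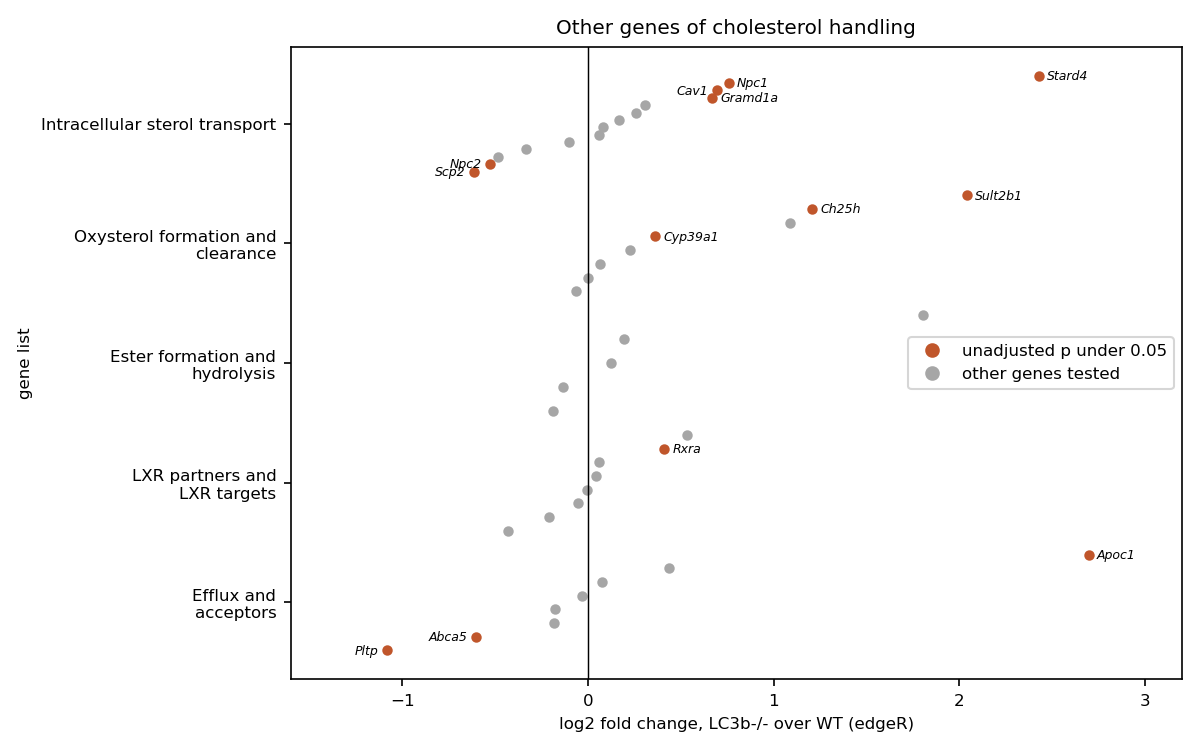
Log2 fold change of LC3b-/- over WT (edgeR, horizontal axis) for the tested genes of 5 lists of cholesterol handling, with the genes at an unadjusted p under 0.05 coloured and named and *Apoa2* left out, since it had 2 counts in LC3b-/-. The named genes lie on both sides of 0, and *Apoc1*, *Stard4* and *Sult2b1* exceed 2.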

How the data were processed

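RNA was sequenced from RPE of 4 WT and 3 LC3b-/- mice (stranded mRNA libraries, single reads). Reads were quantified by the authors with salmon against mouse GENCODE vM26 (GRCm39) and collapsed to genes by tximeta, and the deposited values are estimated counts per gene, as whole numbers, not scaled for depth. The strand option of salmon and the rounding are not given in the sources used here. Of 52740 identifiers 51721 matched GENCODE vM39 (same build), which gave symbols, coordinates and lengths. All 7 columns were used.

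Genotypes were compared with edgeR 4.0.16 under R 4.3.3 (filterByExpr, TMM, quasi-likelihood test without covariates, Benjamini-Hochberg over 16990 genes). A call is an adjusted p under 0.05 with a fold change of at least 1.5. CPM are TMM-scaled. A log2 CPM uses a prior count of 2, and ratios add 2 to each count. Exact permutation tests are two-sided over 35 splits, with 0.0286 the smallest p. Replicates are mice, which the labels do not tie to litters or days. Named beside the 10 genes were the wider genes at an unadjusted p under 0.05 and the 2 most abundant of each list. *Soat2*, *Mylip*, *Lpcat3* and *Arl4c* were named in addition. The genes and all lists were chosen with earlier results of these data known. Alternatives were DESeq2 1.42.0, voom of limma 3.58.1, other scalings and filters, sex as covariate, females only, a replicate block and each library left out. On simulated data with these depths edgeR recovered 13% of 100 genes changed by a log2 of 1 and 89% of 100 changed by 2, with 6 false calls among 16605 genes. DESeq2 recovered 53% and 96%, with 60 false calls among 16990 genes. The changed genes were drawn from those with a mean above 10 CPM, which *Nr1h3*, *Cyp46a1* and *Lcat* did not reach. The recovery was not measured for genes at their level. Motifs were searched in Python 3.11.15, near-identical copies with BLAST 2.17.0, and figures drawn with matplotlib 3.10.9.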

Additional observations from a re-analysis of the deposited data

How the results depend on the processing

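The 10 genes had 0 calls under every alternative run, with 0 to 4 at an unadjusted p under 0.05, and *Abca1*, *Scarb1*, *Apoe*, *Soat1*, *Nr1h2* and *Cyp27a1* kept their sign under all of them, as did the 3 ratios under theirs. The sign of *Nr1h3* turned with DESeq2 (-0.009), voom (-0.0453), DESeq2's size factors (-0.0061), no filter (-0.0018), sex as covariate (-0.0114), females only (-0.20) and the replicate block (-0.19), and it ran from -0.16 to 0.082 with 1 library left out. *Cyp46a1* turned with females only (-0.32) and the block (-0.54), and ran from -0.21 to 0.43 with 1 library left out. *Abcg1* ran from -0.10 to 0.54 (lowest without LC3b-/- F3), *Lcat* from -0.56 to 0.32 (highest without WT F1), and *Srebf1* from -0.46 to 0.0432. *Apod* was at -0.0097 in females. The cause of these turns was not tested.

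All genes called, 40 in the comparison reported, were 1813 with DESeq2, 124 with voom, 78 without a filter, 197 with sex as covariate, 96 in females and 0 with the replicate block (2889 at an unadjusted p under 0.05). They ran from 11 without LC3b-/- F3 to 485 without LC3b-/- M, with 215 without WT F1, 18, 16 and 20 without WT F2, F3 and M1, and 15 without LC3b-/- F1. Wider genes called were 7 with DESeq2, 3 with sex as covariate and 1 each with voom, DESeq2's size factors, total counts, no filter, at least 10 counts in every library and females only, and ran from 0 to 2 with 1 library left out (2 without WT F1, *Gramd1a* and *Stard4*, and 2 without LC3b-/- M, *Pltp* and *Stard4*). The mouse tags F1 and F3 stand in both genotypes, and with 2 such pairs the tags were not taken to pair the mice. The names also hold a number that the labels do not explain and that never coincides between the genotypes. LC3b-/- M carries another such number than LC3b-/- F1 and F3, so it differs from them in this as well as in sex. Over genes, same-tagged mice deviated from their group means with r of 0.15 and 0.24 and crossed ones with -0.06 and -0.42. Deviations from the mean of so few mice are tied to each other within a genotype, so these values cannot decide whether the tags pair the mice. With the block *Map1lc3b* was at -3.95 (edgeR adjusted p = 0.0701). In that block WT F2, WT M1 and LC3b-/- M each stood alone, so only the F1 and F3 pairs informed the genotype. The 2 males were not in one block. That fit did not call even *Map1lc3b*, so its 0 calls among the 10 genes say little.

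The lowest counts per library were those of *Lcat* (24 to 177) and *Cyp46a1* (51 to 259). For *Abcg1*, *Cyp46a1* and *Lcat* changes of 1.5-fold in either direction are inside the 95% intervals. The test of a difference in genotype effect between sexes gave a smallest adjusted p of 0.998 among the 10 genes, with 1 male in each genotype.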
